A study of Mus musculus with 6 samples.

Results

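The axon guidance ligands and receptors are the cell surface and secreted cues, with their receptors, that steer growing axons and migrating cells. They were chosen by symbol and comprised the semaphorins of classes 3 to 7, the plexins and neuropilins, the Slits and Robos, netrin-1 with the receptors Dcc, neogenin and Unc5a to Unc5d, and the ephrins and Eph receptors. In all, 67 of the 53801 gene rows belonged to them. Their RNA was compared between 3 Control and 3 Hdac4-knockdown libraries of MC3T3-E1, a mouse pre-osteoblast line. Control cells carried a lentivirus with a scrambled, non-silencing RNA. Hdac4-knockdown cells carried the same vector with a short hairpin RNA (shRNA) against Hdac4, the class IIa histone deacetylase under study. Cells of both groups therefore also carried the ZsGreen1 and puromycin resistance genes of the vector, and both were selected with 5 μg/ml puromycin for 7 days. The knockdown group rests on a single hairpin sequence. The study's account calls the libraries biological replicates and the labels speak of independent RNA samples, but neither says whether infections or cultures were separate, so the p-values measure the spread among these samples.

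Guidance cues act in pairs of ligand and receptor. Semaphorins bind plexins, and most secreted class 3 semaphorins also need a neuropilin to do so. Slits bind Robos and usually repel, whereas netrin-1 attracts through Dcc or neogenin and repels through Unc5 receptors. Ephrins and Eph receptors both sit in the cell membrane, so they signal on contact, forward into the Eph-bearing cell and in reverse into the ephrin-bearing cell. In bone, semaphorin 3A, semaphorin 4D and the ephrin-B2 and EphB4 pair are known for signalling between osteoblasts and osteoclasts, and ephrin-B1 is needed for the cranial sutures to form normally.

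Between 29096544 and 31651826 counts per library fell on genes. Hdac4, the targeted gene, measured 40.7, 40.2 and 39.9 CPM (counts per 1000000 counts on genes, scaled by the TMM method) in the Control libraries and 30.7, 28.8 and 29.5 CPM in the Hdac4-knockdown libraries. It fell in the Hdac4-knockdown libraries (log2 fold change -0.44, SE 0.057, adjusted p = 8.98e-07, edgeR), with no overlap between the groups, although 22.4% of its exon bases overlap another gene and the reads carried no strand. Of 14 osteoblast lineage markers, 11 could be tested, 9 of them rose and 2 fell, and their summed level moved from between 5869 and 5913 CPM in Control libraries to between 24047 and 24885 CPM in Hdac4-knockdown libraries. The collagen genes Col1a1 (338 ± 14.4 to 11015 ± 326 CPM) and Col1a2 (1213 ± 22.5 to 8572 ± 163 CPM) carried most of that rise in the sum, while Spp1, the gene of osteopontin, fell (3154 ± 30.9 to 2046 ± 36.1 CPM, mean ± SD, n = 3 for each). The osteoblast marker Alpl had at most 3 counts in every library, and Bglap and Ibsp were too low to be tested. All 9 testable markers of skeletal muscle fell, their sum moving from between 934.5 and 973.2 CPM to between 134.8 and 154.7 CPM. Des made up most of that sum (737 ± 18.5 to 102 ± 8.39 CPM). Control libraries also held RNA of the myogenic factors Myod1 (67.9 ± 3.62 CPM), Myf5 (26.9 ± 1.7 CPM) and Myog (16.8 ± 0.475 CPM). Of the osteoblast factors, Runx2 was at 69.9 ± 4.64 CPM there and Sp7 at only 0.145 ± 0.0828 CPM. Of 10 neuronal markers, Rbfox3, Snap25, Elavl3, Elavl4 and Dcx had at most 3 counts in every library, and of the 5 tested 1 rose and 4 fell, the sum of the list moving from between 334.8 and 342.9 CPM to between 141.2 and 147.5 CPM. The endothelial markers Cldn5 and Emcn, the glial markers Sox10 and Foxd3 and the blood cell markers Adgre1 and Cd3e were at 0 in every library. The endothelial list summed to between 0.393 and 0.802 CPM in Control and between 5.71 and 6.98 CPM in Hdac4-knockdown libraries (2 of 10 tested, both rose), the blood cell list to between 1.64 and 2.78 and between 5.3 and 6.14 CPM (3 of 8 tested, 2 rose). The list of Schwann cell and crest glia markers summed to between 14.7 and 15.8 CPM in Control and between 9.07 and 10.3 CPM in Hdac4-knockdown libraries (4 of 8 tested, 2 rose and 1 fell). The part of these marker changes in the results below was not tested. In bulk RNA, fewer cells of a type and less RNA per cell cannot be told apart.

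Most guidance genes that could be measured differed between the groups, as did most of all genes tested. Of the 67 genes, 51 had enough counts to be tested. edgeR called 42 of them (82.4%), against a background of 75.1% of the 14531 genes tested. For a call, the adjusted p had to be below 0.05 and the log2 fold change, up or down, larger than 0.05. Of the called genes 19 were higher in Hdac4-knockdown libraries (37.3% of those tested, background 38%) and 23 were lower (45.1%, background 37.1%). Changes of at least 1 log2 unit were called upward in 9 genes (17.6%, background 16.5%) and downward in 15 (29.4%, background 10.6%), together 24 (47.1%, background 27.1%). The Control and Hdac4-knockdown libraries did not overlap for 42 of the tested genes (82.4%, background 76.8%). The median log2 fold change was -0.09 over the 51 genes and 0.01 over all genes tested. Their median size of change, regardless of sign, was 0.92 log2 units, against 0.46 over all genes tested.

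**Figure D1:**
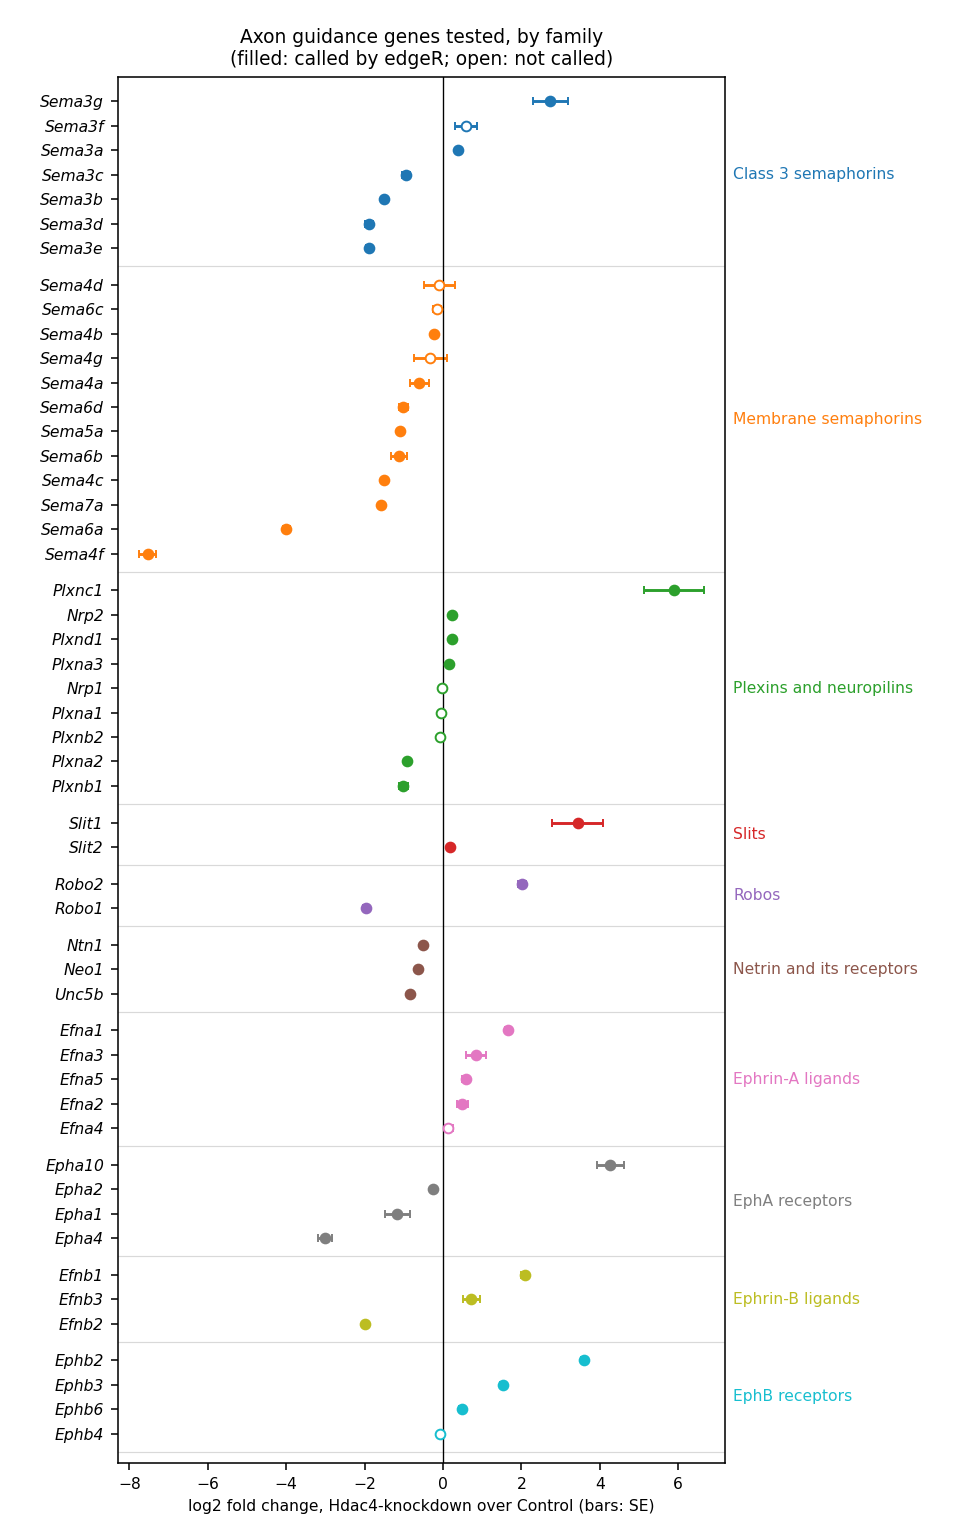
The log2 fold change of Hdac4-knockdown over Control for the 51 guidance genes tested, grouped by family, with bars giving the standard error. Filled points were called by edgeR and open points were not. The membrane semaphorins lie to the left of 0 (Sema4d and Sema4g, which were not called, changed sign without some libraries, and Sema4d with limma-voom) and the ephrin-A ligands to the right, and the Robos and ephrin-B ligands have large changes on both sides.

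Of the 19 semaphorins tested, 13 fell, 2 rose and 4 were not called, with a median log2 fold change of -1.01. Over all genes tested, 37.1% were called lower and 38% higher. Among the 7 secreted class 3 semaphorins, 4 fell, 2 rose and 1 was not called. Sema3e, which binds plexin-D1 without a neuropilin, measured 119, 124 and 118 CPM in Control libraries and 35, 32.4 and 29.6 CPM in Hdac4-knockdown libraries. Each Hdac4-knockdown library was far below each Control library, and the Control mean was 3.73 times the Hdac4-knockdown mean (log2 fold change -1.90, SE 0.0566, adjusted p = 1.21e-16). Sema3d, which acts through neuropilins, measured 21, 19.9 and 22.3 CPM in Control and 6.75, 4.72 and 5.65 CPM in Hdac4-knockdown libraries, and it fell by a like amount (log2 fold change -1.89, SE 0.108, adjusted p = 4.13e-12). Sema3b, a neuropilin ligand also known as a tumour suppressor, went from 56.2, 56.9 and 57 CPM to 21, 20.2 and 19.1 CPM and also separated the groups completely (log2 fold change -1.50, SE 0.0584, adjusted p = 9.02e-15).

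Sema3a, the neuropilin-1 ligand known to protect bone mass, moved the other way. It measured 93.5, 91.9 and 93.8 CPM in Control libraries and 124, 114 and 124 CPM in Hdac4-knockdown libraries. The rise was small but larger than the spread within either group, and the groups did not overlap (log2 fold change 0.37, SE 0.0459, adjusted p = 4.75e-07). Sema3c fell (log2 fold change -0.95). Sema3g rose from counts of 2, 5 and 7 in Control libraries to 41, 25 and 34 in Hdac4-knockdown libraries, so its fold change is poorly fixed (log2 fold change 2.74, SE 0.446, adjusted p = 1.69e-05). Sema3f was not called (log2 fold change 0.59, SE 0.273, adjusted p = 0.0589), and it was called without Control replicate 3 (log2 fold change 0.85, adjusted p = 0.018). Sema3d, Sema3a and Sema3e follow each other on mouse chromosome 5 (GRCm38), with 536.5 kb between the first pair and 422.7 kb between the second, so a gene that rose lay between those that fell.

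None of the membrane semaphorins was called upward. Of 12 tested, 9 fell, 7 of them by at least 1 log2 unit, and 3 were not called, with a median log2 fold change of -1.06. Among all genes tested, 37.1% were called lower, and 10.6% were called lower by at least 1 log2 unit. Sema7a, which is tethered to the membrane by a lipid anchor and binds plexin-C1 and integrins, was the most abundant semaphorin per exon length in both groups. It measured 212, 217 and 213 CPM in the Control libraries and 69.3, 72.2 and 72 CPM in the Hdac4-knockdown libraries. The values within each group lay close together, and the Control mean was 3.01 times the Hdac4-knockdown mean (log2 fold change -1.59, SE 0.0424, adjusted p = 2.13e-17). Sema4c, a plexin-B2 ligand, went from 81.7, 87.1 and 84.3 CPM to 29.2, 30.8 and 29.1 CPM without overlap (log2 fold change -1.51, SE 0.0525, adjusted p = 1.51e-15), although 7.27% of its exon bases overlap a gene on the other strand. Sema5a, which carries thrombospondin repeats, went from 221, 232 and 229 CPM to 113, 105 and 99.1 CPM (log2 fold change -1.10, SE 0.0479, adjusted p = 5.03e-14).

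The steepest falls were those of Sema4f and Sema6a. Sema4f (GRCm38 chr6:82911885-82939769, minus strand), a transmembrane semaphorin, had counts of 468, 422 and 415 in Control libraries and 3, 1 and 3 in Hdac4-knockdown libraries. All 3 Hdac4-knockdown libraries were thus at the edge of detection while the Control libraries were not. The Control level was 195 times the Hdac4-knockdown level from the summed counts (95% exact binomial interval 94.6 to 487, covering counting error only), and the fitted change was in the same direction (adjusted p = 1.12e-16). Sema6a, a transmembrane ligand of plexin-A2 and plexin-A4, measured 31.4, 34 and 34.7 CPM in Control libraries and 2.1, 2.02 and 2.16 CPM in Hdac4-knockdown libraries. It remained countable in every Hdac4-knockdown library, with 65 counts in each, and the Control mean was 16 times the Hdac4-knockdown mean (log2 fold change -3.99, SE 0.0969, adjusted p = 4.62e-18). Sema6b (log2 fold change -1.13, SE 0.205) and Sema6d (-1.01, SE 0.112), a plexin-A1 ligand, fell by about 1 log2 unit.

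The smaller falls were those of Sema4b (log2 fold change -0.23, SE 0.0605) and Sema4a (-0.60, SE 0.238, adjusted p = 0.0281). The Sema4a call was lost without Control replicate 3 (log2 fold change -0.39, adjusted p = 0.184) and without Hdac4-knockdown replicate 2 or 3. Sema6c measured 9.42, 9.69 and 10.6 CPM in Control and 8.08, 10.5 and 8.11 CPM in Hdac4-knockdown libraries, with the second Hdac4-knockdown library inside the Control range, and it was not called (log2 fold change -0.15, SE 0.113, adjusted p = 0.229). Without that library it was called (log2 fold change -0.29, adjusted p = 0.0226). Sema4d, known as an osteoclast signal to osteoblasts, had only 23, 20 and 8 counts in Control and 18, 14 and 18 in Hdac4-knockdown libraries, and Sema4g was as low. Neither was called, and at this depth no difference was detectable for them.

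The 250 bases before the start of Sema4f are shown because no other guidance gene fell as far. They come from RefSeq, build GRCm38.p6 (chr6:82939770-82940019, minus strand), and are written in the direction of transcription. Capitals mark CCAAT or its reverse complement ATTGG, the letters of a common promoter box. The box is found here in reverse, starting 42 and 14 bases before the start, and 46% of the bases are G or C.
Sema4f: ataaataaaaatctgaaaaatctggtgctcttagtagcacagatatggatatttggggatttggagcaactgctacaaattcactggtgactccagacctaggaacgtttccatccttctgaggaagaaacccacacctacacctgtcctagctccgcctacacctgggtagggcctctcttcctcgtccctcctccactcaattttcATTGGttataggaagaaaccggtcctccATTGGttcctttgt

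The plexins and neuropilins, the receptors of these ligands, moved less. Of 9 tested, 4 rose, 2 fell and 3 were not called, and their median log2 fold change was -0.01. Among all genes tested, 38% were called higher and 37.1% lower. Plxnb2, a receptor of class 4 semaphorins and the most abundant guidance transcript per exon length in both groups, measured 594, 617 and 613 CPM in Control and 568, 598 and 574 CPM in Hdac4-knockdown libraries. The groups overlapped and it was not called (log2 fold change -0.07, SE 0.0375, adjusted p = 0.103), although it was called without Hdac4-knockdown replicate 2 (log2 fold change -0.09, adjusted p = 0.0263). Plxna1 likewise overlapped, with 245, 274 and 259 CPM in Control and 253, 252 and 242 CPM in Hdac4-knockdown libraries (log2 fold change -0.06, SE 0.0442, adjusted p = 0.23). It was called without Control replicate 1 (log2 fold change -0.11, adjusted p = 0.0494), and 10.7% of its exon bases overlap a gene on the other strand.

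Both neuropilins, the co-receptors of class 3 semaphorins, were well expressed. Nrp1 measured 58.7, 59.6 and 56.9 CPM in Control and 59.9, 57.7 and 56 CPM in Hdac4-knockdown libraries, with overlapping groups, and was not called (log2 fold change -0.01, SE 0.05, adjusted p = 0.819). Nrp2 rose slightly but in all 3 libraries, from 310.1, 313 and 326 CPM to 382, 360.0 and 369 CPM (log2 fold change 0.23, SE 0.0397, adjusted p = 3.82e-05). Plxnd1, the Sema3e receptor, rose by a like amount (log2 fold change 0.22, SE 0.042), while Sema3e itself fell by 1.90 log2 units. Plxna3 was called upward (log2 fold change 0.16, SE 0.0575, adjusted p = 0.0176), but not without Control replicate 1 (0.14, adjusted p = 0.077) or Control replicate 2 (0.15, adjusted p = 0.0548).

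Plxna2, a Sema6a receptor, and Plxnb1, the Sema4d receptor, were the plexins that fell. Plxna2 went from 60.4, 61.9 and 61.8 CPM to 33.3, 31.6 and 32.3 CPM (log2 fold change -0.92, SE 0.0523, adjusted p = 3.79e-12), and Plxnb1 from 10.6, 11.7 and 9.89 CPM to 5.04, 5.46 and 5.45 CPM (log2 fold change -1.01, SE 0.109, adjusted p = 7.68e-08). Neither gene's groups overlapped. Plxnc1, the plexin that binds Sema7a, was nearly silent in Control libraries, with counts of 0, 0 and 1, and had counts of 41, 25 and 19 in Hdac4-knockdown libraries. From the summed counts its level in Hdac4-knockdown libraries was 81.1 times the Control level (95% exact binomial interval 14.2 to 3241), but its level there, 0.109 CPM per kb of exon, was still below that of every other called plexin. Its fitted log2 fold change of 5.90 became 7.81 without Control replicate 3 and 5.18 with limma-voom, so its size is uncertain, and it was called in each case.

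The Robos, receptors of the Slits, changed in opposite directions. Robo1 measured 38.1, 41.8 and 42.9 CPM in Control and 10.4, 10.9 and 10.3 CPM in Hdac4-knockdown libraries (log2 fold change -1.96, SE 0.0721, adjusted p = 3.64e-15). Robo2 measured 4.39, 4.24 and 4.1 CPM in Control and 17.9, 17.6 and 15.7 CPM in Hdac4-knockdown libraries (log2 fold change 2.01, SE 0.101, adjusted p = 5.56e-13). Control libraries were thus high in Robo1 and low in Robo2, Hdac4-knockdown libraries the reverse, and neither gene's groups overlapped. Per exon length Robo1 gave 90.7% ± 0.781 (SD, n = 3) of the Robo total in Control libraries and 37.8% ± 1.4 in Hdac4-knockdown libraries, while Robo2 went from 9.18% ± 0.804 to 59.4% ± 1.19. The genes are neighbours on mouse chromosome 16 (GRCm38 chr16:72308306-73046095 and chr16:73891839-74411825), 845.7 kb apart, and no other tested gene lay within 500 kb of either.

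Among their ligands, Slit2 made up 99.2% of the Slit total per exon length in Control libraries. Slit2 measured 27.5, 28.5 and 30.8 CPM in Control and 34.1, 32.1 and 32.9 CPM in Hdac4-knockdown libraries, a small rise without overlap (log2 fold change 0.19, SE 0.0629, adjusted p = 0.0106). Its call was lost without Control replicate 1 (log2 fold change 0.14, adjusted p = 0.0814). Slit1 rose from counts of 2, 2 and 1 to 15, 36 and 10, with Hdac4-knockdown replicate 2 well above the other two, and its summed counts were 11.6 times higher in Hdac4-knockdown libraries (95% exact binomial interval 4.73 to 37.1). Without that library its log2 fold change went from 3.44 to 2.78, and it was still called. Slit3 had at most 1 count in any library.

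Netrin-1 and the 2 of its receptors that could be tested all fell (37.1% of all genes tested were called lower). Ntn1, the ligand, went from 102, 108 and 101 CPM in Control to 74.6, 74.5 and 70.3 CPM in Hdac4-knockdown libraries (log2 fold change -0.51, SE 0.047, adjusted p = 8.46e-09). Neo1, which encodes neogenin, a receptor shared by netrin-1 and the repulsive guidance molecules, went from 304, 308 and 304 CPM to 187, 204 and 195 CPM (log2 fold change -0.65, SE 0.041, adjusted p = 2.35e-11). Unc5b, a repulsive netrin receptor also known from blood vessels, went from 139.9, 150.1 and 143 CPM to 81.9, 82.2 and 76.9 CPM (log2 fold change -0.84, SE 0.0462, adjusted p = 2.13e-12). In each case the 3 Hdac4-knockdown libraries lay below the 3 Control libraries, and each fold change was under 1 log2 unit in size. The groups did not overlap for 76.8% of all genes tested. Dcc, the attractive netrin receptor of neurons, was at 0 in 5 libraries and at 3 counts in the other.

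The ephrin-A ligands, which are held in the membrane by a lipid anchor, were called in 4 of 5 cases and upward each time. Over all genes tested, 75.1% were called and 38% were called higher. Efna1, the ligand best known for binding EphA2, measured 21.5, 19.5 and 22.5 CPM in Control and 62.8, 67.6 and 69.9 CPM in Hdac4-knockdown libraries. The lowest Hdac4-knockdown library was well above the highest Control library, and the mean rose 3.16-fold (log2 fold change 1.66, SE 0.0639, adjusted p = 7.33e-15). Efna3 (log2 fold change 0.85, SE 0.255), Efna5 (0.58, SE 0.094) and Efna2 (0.50, SE 0.142) rose less. Efna4, at 6.22, 6.35 and 7.23 CPM in Control and 6.85, 7.23 and 7.57 CPM in Hdac4-knockdown libraries, overlapped between the groups and was not called (log2 fold change 0.13, SE 0.114, adjusted p = 0.305). Efna1, Efna3 and Efna4 lie in a row on mouse chromosome 3, with gaps of 32.8 kb and 10.4 kb, and the fold change was smaller with each gene along the row. Of 40 other tested genes within 500 kb of Efna1, Efna3 and Efna4 included, 27 rose, 5 fell and 8 were not called (median log2 fold change 0.29). Neighbours differed among the guidance genes that rose. Within 500 kb of Epha10, 2 of 14 tested genes rose and 6 fell, and within 500 kb of Ephb3, 5 of 7 rose and 0 fell. Efna3 and Efna4 share 14.1% and 10.5% of their exon bases with genes on the other strand.

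Of the EphA receptors, which bind these ligands, 4 of 9 were testable, and 3 fell and 1 rose (37.1% and 38% over all genes tested). Epha2 made up 97.1% of the EphA total per exon length in Control libraries and 97.9% in Hdac4-knockdown libraries. It measured 191, 194 and 193 CPM in Control and 154, 164 and 165 CPM in Hdac4-knockdown libraries, a modest fall without overlap (log2 fold change -0.26, SE 0.0418, adjusted p = 1.79e-05). Efna1 and Epha2, a ligand and its receptor, thus changed in opposite directions. Epha4, a receptor for ephrins of both classes, fell from 7.1, 6.68 and 6.88 CPM to 0.776, 0.714 and 1.06 CPM, so that the Control mean was 8.09 times the Hdac4-knockdown mean (log2 fold change -3.02, SE 0.181, adjusted p = 9.18e-12). Epha1 fell from 1.51, 1.14 and 1.61 CPM to 0.452, 0.838 and 0.598 CPM (log2 fold change -1.16, SE 0.309, adjusted p = 0.00227), and 6.01% of its exon bases overlap Zyx on the other strand. Epha10, a receptor without kinase activity, rose from counts of 2, 4 and 6 to 92, 79 and 79 (log2 fold change 4.27, SE 0.351, adjusted p = 1.29e-09), yet gave only 1.06% of the EphA total in Hdac4-knockdown libraries.

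The ephrin-B ligands, which span the membrane and signal in reverse through their cytoplasmic tail, exchanged places. Efnb2, known from arteries and from osteoclasts, measured 118, 125 and 122 CPM in the Control libraries and 30.4, 31.3 and 30.3 CPM in the Hdac4-knockdown libraries. The Control mean was 3.97 times the Hdac4-knockdown mean (log2 fold change -1.99, SE 0.0492, adjusted p = 6.57e-18). Efnb1, the ephrin of the cranial sutures, measured 10.2, 12.8 and 11.2 CPM in Control and 46, 51.8 and 46.5 CPM in Hdac4-knockdown libraries, a 4.23-fold rise (log2 fold change 2.08, SE 0.0796, adjusted p = 6.63e-15). All 3 Control libraries were high in Efnb2 and low in Efnb1, and all 3 Hdac4-knockdown libraries were the reverse. Per exon length Efnb2 gave 82.6% ± 0.753 (SD, n = 3) of the ephrin-B total in Control libraries and 23.4% ± 0.798 in Hdac4-knockdown libraries, while Efnb1 went from 15.3% ± 1.14 to 72.7% ± 1.08. The total of the 3 ligands moved far less, from 21.5 ± 0.878 to 19.1 ± 1.02 CPM per kb. Efnb3 also rose (log2 fold change 0.72, SE 0.217) and stayed below 5% of the total in every library.

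Of the 4 EphB receptors tested, 3 rose and none fell (38% and 37.1% over all genes tested). Ephb2, a receptor for ephrin-B ligands, measured 6.32, 6.65 and 6.17 CPM in Control libraries and 78.9, 78.3 and 74.9 CPM in Hdac4-knockdown libraries. The Hdac4-knockdown mean was 12.1 times the Control mean, with little spread within either group (log2 fold change 3.60, SE 0.066, adjusted p = 5.77e-20). Ephb3 rose from 14.2, 15.2 and 14.5 CPM to 41.8, 46.2 and 39.1 CPM (log2 fold change 1.53, SE 0.0727, adjusted p = 2.08e-13). Ephb6, which lacks kinase activity, rose less (log2 fold change 0.47, SE 0.0562). Ephb4, the ephrin-B2 receptor of osteoblasts, measured 69.3, 62.4 and 63.6 CPM in Control and 62.8, 65.3 and 58.8 CPM in Hdac4-knockdown libraries, with overlapping groups, and was not called (log2 fold change -0.06, SE 0.055, adjusted p = 0.3). Ephb4 nonetheless went from 53.9% ± 1.89 to 34.6% ± 0.531 of the EphB total per exon length, since Ephb2 went from 1.95% ± 0.0942 to 15.8% ± 0.544 and Ephb3 from 8.47% ± 0.448 to 16.4% ± 0.613.

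**Figure D2:**
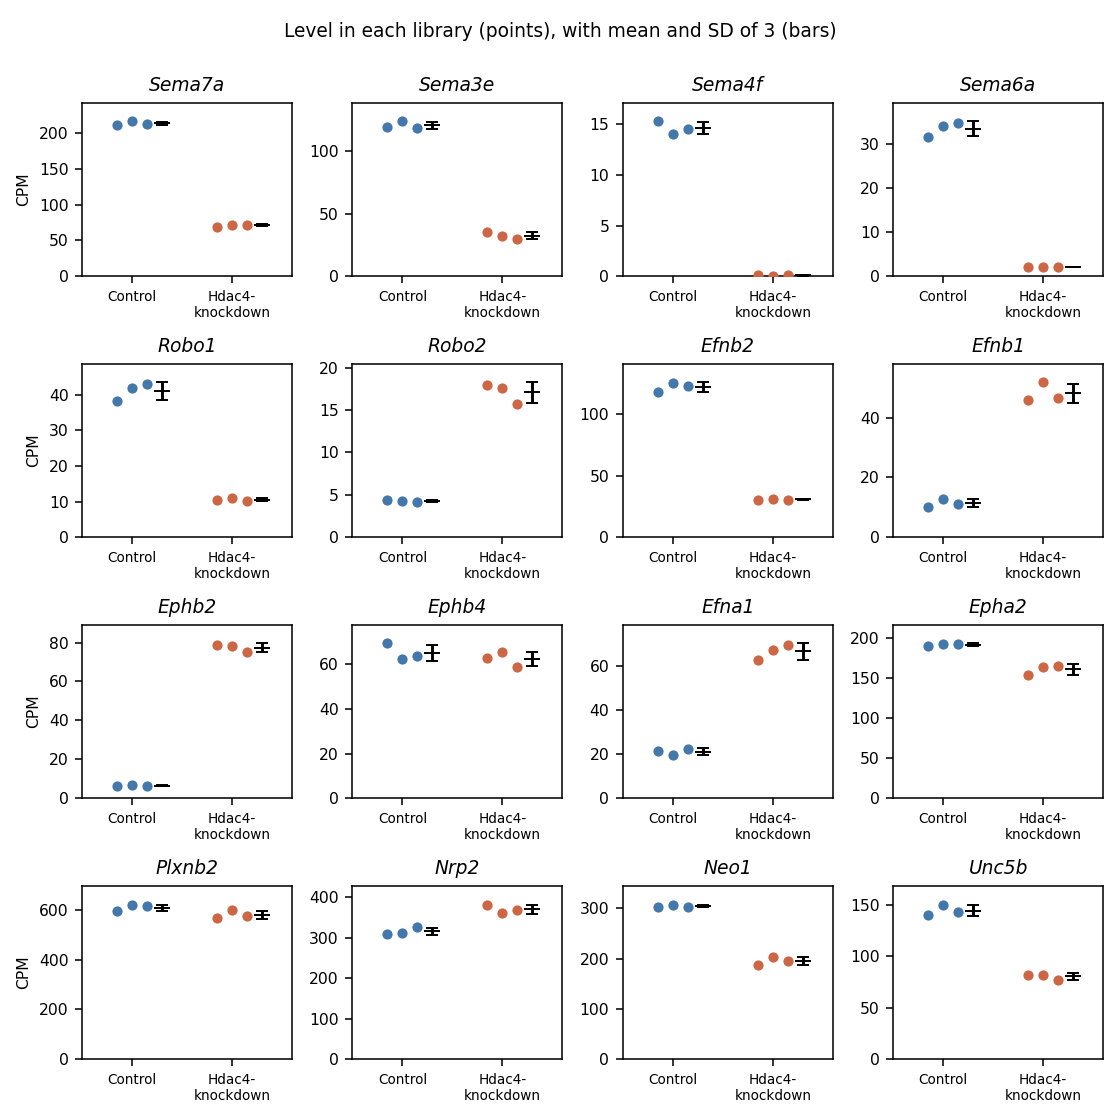
CPM in each library for 16 guidance genes, with points for the 3 Control and 3 Hdac4-knockdown libraries and bars for the mean and SD of each group. Every axis starts at 0. The groups are apart for each gene shown except Ephb4 and Plxnb2, whose libraries overlap. Over all genes tested, 76.8% did not overlap.

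The starts of Efnb1, Efnb2 and Ephb2 are shown because they are 3 partners of a single ligand and receptor system and moved by about 2 log2 units or more, Efnb2 against the other two. Each line gives the 250 bases before the RefSeq start (GRCm38.p6) in the direction of transcription, with capitals for CCAAT and for the TATAAA box, each in either direction. The Efnb1 stretch is chrX:99135811-99136060, plus strand, that of Efnb2 chr8:8661243-8661492, minus strand, and that of Ephb2 chr4:136836013-136836262, minus strand. The RefSeq starts of Efnb1 and Ephb2 lie 69 and 24 bases upstream of the GENCODE gene starts.
Efnb1: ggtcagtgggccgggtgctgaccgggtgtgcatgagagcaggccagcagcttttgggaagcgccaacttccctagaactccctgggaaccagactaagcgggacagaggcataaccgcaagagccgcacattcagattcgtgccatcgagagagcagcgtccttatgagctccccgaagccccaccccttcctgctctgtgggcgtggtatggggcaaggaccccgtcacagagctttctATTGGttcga
Efnb2: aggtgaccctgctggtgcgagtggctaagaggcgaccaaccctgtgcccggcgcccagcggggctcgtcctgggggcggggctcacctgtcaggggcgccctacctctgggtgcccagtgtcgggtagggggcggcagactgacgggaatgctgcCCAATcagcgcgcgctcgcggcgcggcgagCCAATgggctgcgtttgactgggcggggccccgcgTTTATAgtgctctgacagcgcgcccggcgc
Ephb2: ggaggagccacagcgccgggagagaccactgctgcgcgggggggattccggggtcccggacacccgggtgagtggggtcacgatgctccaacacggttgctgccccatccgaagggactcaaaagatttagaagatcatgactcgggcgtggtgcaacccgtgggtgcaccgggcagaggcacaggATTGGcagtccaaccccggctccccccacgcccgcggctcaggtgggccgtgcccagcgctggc

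Efnb2 has CCAAT starting 95 and 65 bases before its start and TATAAA, in reverse, 30 bases before it. Efnb1 and Ephb2 each hold a single CCAAT in reverse, 10 and 64 bases before the start. G and C make up 60% of the Efnb1 stretch, 72% of that of Efnb2 and 68.4% of that of Ephb2.

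RefSeq promoter windows of 300 bases (250 before to 50 after the start) were matched by symbol for 57 of the 67 guidance genes. No window was matched for Dcc, Efnb3, Ntn1, Plxna1, Plxna4, Sema3b, Sema3f, Sema6a, Slit1 and Unc5d. The windows were rich in G and C, with a median per gene of 66.7% and 23 CpG dinucleotides, against 53.3% and 8 over 27025 genes. These 27025 genes, the all genes of this paragraph, were not limited to the 14531 genes tested. Any gene with several windows entered with its highest value, and a motif in any of its windows was counted. The medians were 67.7% and 23 in the 17 genes that rose and 66% and 23 in the 20 that fell. GGGCGG, read on both strands, occurred in 43 of 57 genes (75.4%, all genes 38.2%), CCAAT in 20 (35.1%, all genes 41.1%) and TATAAA in 2 (3.51%, all genes 15.7%). TGTGGT, the letters bound by Runx factors, occurred in 9 (15.8%, all genes 18.9%), among them 3 of the 17 that rose and 1 of the 20 that fell. The others were Efna4 and Sema4d, which were not called, and Ephb1, Plxnb3 and Unc5c, which were not tested. The MEF2 motif, of interest because HDAC4 is known to bind MEF2 factors, was found for 1 gene, Sema6d (1.75%, all genes 3.7%). The SRF CArG box was found for Robo1 and Sema4d (3.51%, all genes 1.81%). These are matches of letters only, read on both strands, and a MEF2 match can hold TATAAA within it.

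Per exon length, the order of the guidance genes changed between the groups. In Control libraries Plxnb2 was highest (78.8 CPM per kb of exon), followed by Sema7a (64.8), Epha2 (41.2), Neo1 (35), Plxna1 (28.6) and Nrp2 (26.7). In Hdac4-knockdown libraries Plxnb2 was still first (75.1 CPM per kb). Efna1, at place 16 in Control libraries (11.6 CPM per kb), came second (36.5), ahead of Epha2 (34.5) and Nrp2 (31.3). Sema7a dropped to place 7 (21.6 CPM per kb) and Efnb2 from place 9 to place 23, whereas Efnb1 climbed from place 25 to place 9 and Ephb2 from place 39 to place 18.

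**Figure D3:**
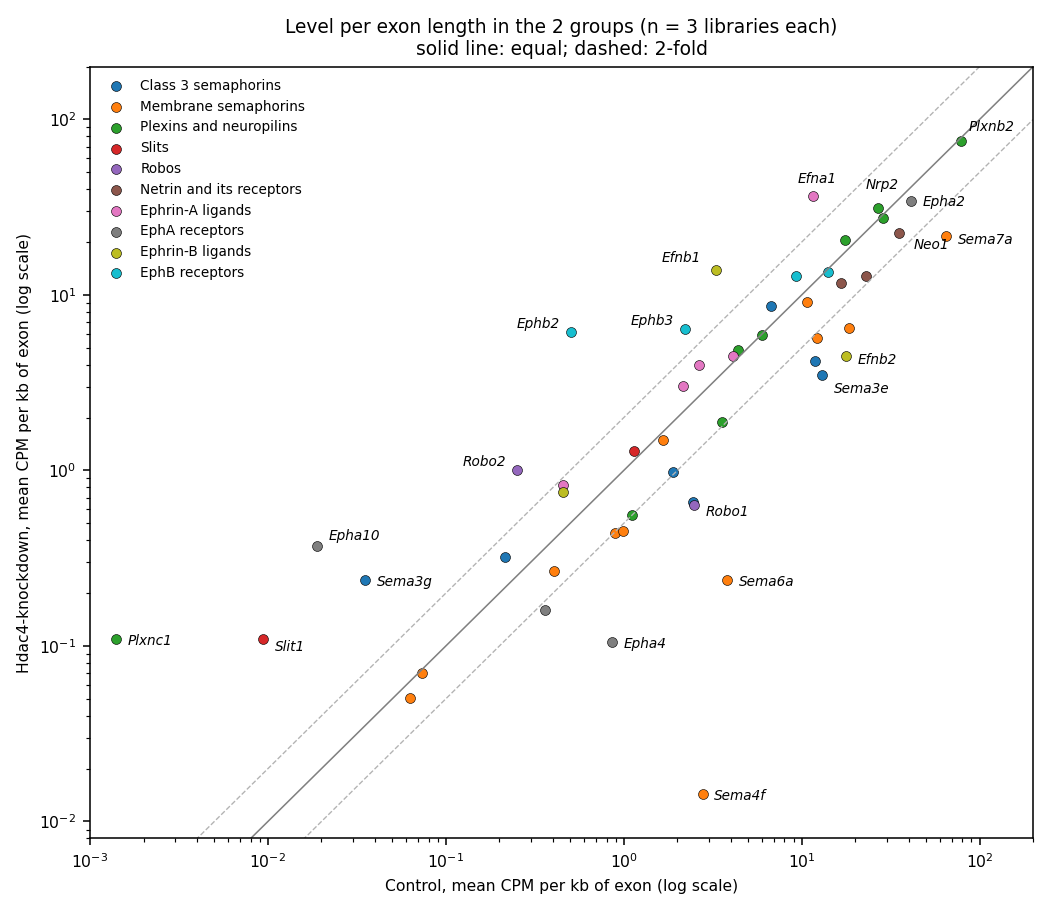
Mean level per exon length in Control libraries (horizontal, log scale) against Hdac4-knockdown libraries (vertical, log scale) for the 51 guidance genes tested, coloured by family, with n = 3 libraries a group. Points on the solid line are equal in both groups and the dashed lines mark a 2-fold difference. Plxnb2, Epha2 and Nrp2 lie near the solid line at the top, Sema4f, Sema6a and Epha4 far below it, and Ephb2, Efnb1 and Efna1 far above.

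Summed over a family, the level per exon length of the membrane semaphorins went from 117 ± 2.51 (SD, n = 3) to 45.9 ± 1.4 CPM per kb, and that of the class 3 semaphorins from 36.2 ± 0.30 to 18.6 ± 0.671. The ephrin-A ligands went from 20.9 ± 0.958 to 48.8 ± 1.75 CPM per kb and the EphB receptors from 26 ± 0.561 to 38.8 ± 1.84. For the plexins and neuropilins, the total of 167 ± 3.9 CPM per kb in Control libraries and 168 ± 2.37 in Hdac4-knockdown libraries overlapped. Netrin-1 and its receptors went from 74.6 ± 1.64 to 46.9 ± 1.33 CPM per kb, the EphA receptors from 42.4 ± 0.247 to 35.2 ± 1.36, the Robos from 2.73 ± 0.147 to 1.69 ± 0.0868 and the Slits from 1.15 ± 0.0638 to 1.41 ± 0.0549. Within the class 3 semaphorins, Sema3a went from 18.6% ± 0.301 to 46.8% ± 1.42 of the total, while Sema3e went from 35.9% ± 0.819 to 18.7% ± 1.28 and Sema3b from 32.8% ± 0.0531 to 22.6% ± 0.95. These sums are descriptions and were not tested.

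**Figure D4:**
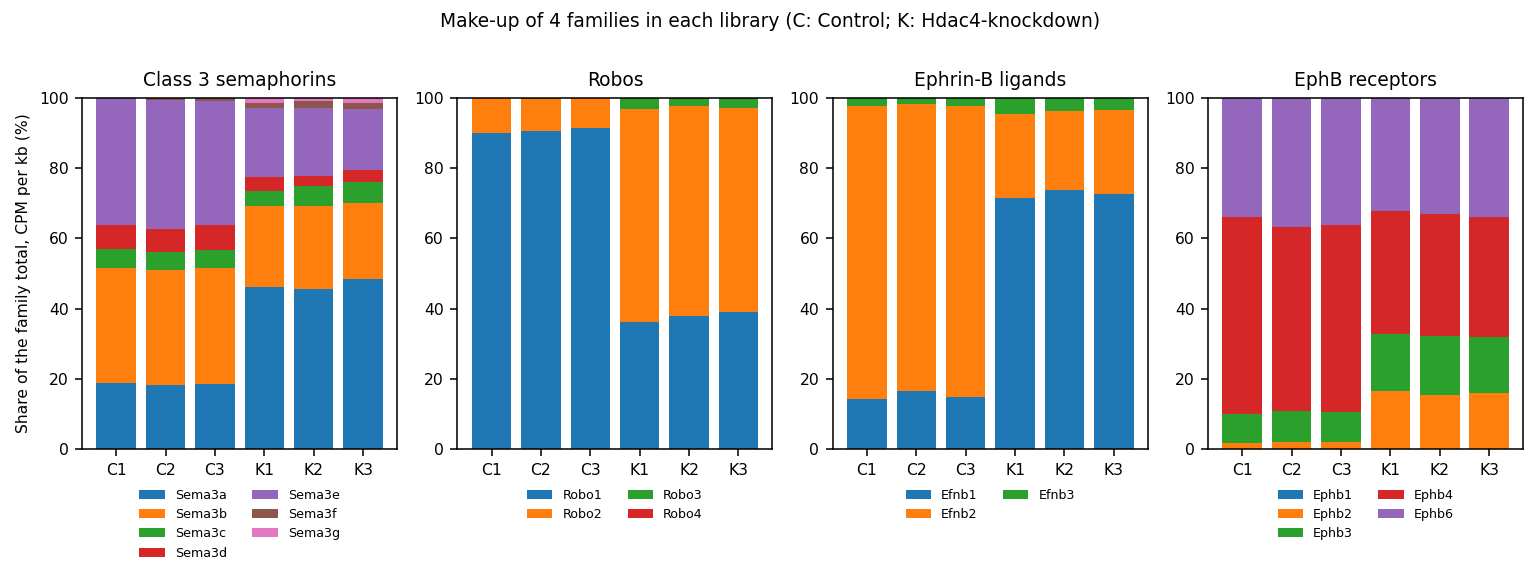
Share of each gene in its family's total level per exon length (vertical, percent) in each of the 3 Control (C) and 3 Hdac4-knockdown (K) libraries, for 4 families. Replicates of a group look alike in each panel, and the leading gene differs between the groups for the Robos, the ephrin-B ligands and the class 3 semaphorins.

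Counts were too low to test 16 of the guidance genes. Epha3, at 0 in all Control libraries, had counts of 11, 9 and 14 in Hdac4-knockdown libraries, which is at least 3.62-fold higher against a floor of 3 counts per library. The netrin receptor Unc5c was also at 0 in Control libraries and had counts of 3, 7 and 6 in Hdac4-knockdown libraries, at least 1.69-fold higher on the same floor. Robo3, Ephb1 and Epha8 had 2, 3 and 2 counts in all over the Control libraries and 28, 35 and 22 over the Hdac4-knockdown libraries, giving ratios of 13.4 (95% exact binomial interval 3.37 to 116), 11.1 (3.51 to 56.6) and 10.5 (2.58 to 92.1). Epha7 went the other way, with 9 counts over the Control and 1 over the Hdac4-knockdown libraries (ratio 9.43, interval 1.31 to 413). Plxna4 had counts of 21, 13 and 4 in Control and 3, 6 and 6 in Hdac4-knockdown libraries, with overlap, and Plxnb3 and Epha5 had at most 6 counts in any library. Epha6, Sema5b and Unc5a were at 0 in every library, which at this depth allows up to 3 counts in each. Dcc, Unc5d, Robo4 and Slit3 had at most 3 counts in any library.

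Intracellular partners of these receptors were read from a list of 56 effectors, of which 53 were tested, 28 fell, 14 rose and 11 were not called, with a median log2 fold change of -0.17. Over all genes tested, 38% were called higher and 37.1% lower, with a median of 0.01. Chn2 and Chn1, the chimaerins that switch off Rac, were among those that fell most. Chn2 went from 27.9, 27.3 and 28.5 CPM to 1.97, 2.36 and 3.46 CPM (log2 fold change -3.43, SE 0.124, adjusted p = 2.56e-15), and Chn1, which acts behind EphA4, from 14.9, 15.5 and 16.2 CPM to 3.88, 4.41 and 3.95 CPM (log2 fold change -1.93, SE 0.102, adjusted p = 1.37e-12). Ngef, which encodes ephexin, a protein bound by EphA4, went from 32.1, 31.2 and 31.6 CPM to 8.92, 9.43 and 8.17 CPM (log2 fold change -1.84, SE 0.076, adjusted p = 2.25e-14). These genes were picked as the 3 largest falls of the list at 5 CPM or more, and a link to the fall of Epha4 was not tested. The groups did not overlap for any of them, as for 76.8% of all genes tested.

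Among the effectors that rose, Fes, a tyrosine kinase that acts behind plexins, went from 2.81, 2.71 and 2.46 CPM to 25, 26.7 and 26.5 CPM (log2 fold change 3.29, SE 0.0979, adjusted p = 1.17e-16). Enah, an actin regulator in Robo and netrin signalling, went from 33.3, 36.7 and 35.8 CPM to 117, 113 and 112 CPM (log2 fold change 1.69, SE 0.0511, adjusted p = 1.49e-16). Farp2, an exchange factor bound by plexin-A1, went from 11.6, 13.5 and 11.9 CPM to 25.8, 24.4 and 23.3 CPM (log2 fold change 0.99, SE 0.0804, adjusted p = 1.11e-09). All 3 Hdac4-knockdown libraries were above all Control libraries for each of these genes (no overlap in 76.8% of all genes tested).

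Of 31 other guidance ligands and co-receptors, 30 were in the files and 20 were tested, of which 11 rose, 6 fell and 3 were not called (median log2 fold change 0.17). Over all genes tested, 75.1% were called, 38% higher and 37.1% lower. The share of risers among the called genes of the list was 64.7% (50.6% over all called genes). It was 75% with library size alone (55.1%) or upper quartile normalization (57.8%) and 80% with at least 10 counts in every library (50.2%). With no filter beyond 1 count (51.9%) or without Control replicate 1 (50.6%) it was 58.8%. At a fold threshold of 1 log2 unit it was 57.1%, below the 60.8% over all called genes. Flrt3, a ligand of Unc5 receptors and latrophilins, rose from 0.491, 0.969 and 0.561 CPM to 17, 15.4 and 16.8 CPM (log2 fold change 4.60, SE 0.164, adjusted p = 2.23e-15). Ntng2, a membrane-anchored relative of the netrins, rose from 1.05, 1.07 and 1.51 CPM to 22.2, 22.9 and 22.7 CPM (log2 fold change 4.23, SE 0.124, adjusted p = 1.00e-16), and Adgrl2, a latrophilin, from 19.9, 21.5 and 21.2 CPM to 81.2, 73.9 and 78.5 CPM (log2 fold change 1.90, SE 0.0584, adjusted p = 1.94e-16). None of these genes overlapped between the groups, as was so for 76.8% of all genes tested.

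L1cam, a cell adhesion molecule that joins neuropilin-1 in semaphorin reception, had the largest fall of that list, from 77, 75.3 and 76.8 CPM to 0.679, 0.776 and 0.432 CPM (log2 fold change -6.91, SE 0.105, adjusted p = 3.41e-21). Met, the hepatocyte growth factor receptor, which associates with B plexins, went from 203, 206 and 203 CPM to 86.6, 78.1 and 79.6 CPM (log2 fold change -1.33, SE 0.046, adjusted p = 1.37e-15). Rgmb, a repulsive guidance molecule that binds neogenin, went from 38.4, 39.1 and 37.8 CPM to 28.9, 32.8 and 28.1 CPM (log2 fold change -0.36, SE 0.0644, adjusted p = 5.14e-05). All 3 genes were lower in every Hdac4-knockdown library than in any Control library (no overlap in 76.8% of all genes tested).

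Because the group rests on a single hairpin, its sequence was compared with the transcripts of the guidance genes. The labels call the group Hdac4-shRNA, and the hairpin was taken as the third of the designed set from the study's account. Its target sequence, with the 7 bases that pair with the seed of the presumed guide strand in capitals, is as follows.
Hdac4-shRNA3 target: gcatgaggcacagTTGCATGa

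The 21 bases matched Hdac4 transcripts and no other gene. The 7-base site occurred in the annotated 3′ ends of 5 of the 51 tested guidance genes (9.8%). It occurred in 1282 of the 12532 tested genes with an annotated 3′ end (10.2%). Of these 5 genes, Sema3e, Sema7a and Plxna2 fell, while Sema3a and Plxna3 rose. The median log2 fold change was -0.92 over the 5 guidance genes with the site and -0.08 over those without it. Over the 12532 genes it was -0.02 in both classes. With 5 genes this is a description, and the part of the hairpin in the changes of the guidance genes was not tested. The annotated 3′ ends of the guidance genes had a median length of 1464 bases, against 974.5 bases over the 12532 genes.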

How the data were processed

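RNA was sequenced from 3 Control and 3 Hdac4-knockdown samples of MC3T3-E1 cells. The authors deposited raw counts per Ensembl gene, not normalized, and the submitters' processing notes name FastQC, STAR 2.7.3a, HTSeq 0.12.4 and the build mm10. The annotation and strand setting are not given in the sources used here, and the library kit does not mark strand. HTSeq's summary lines were left out. Those for reads outside genes, ambiguous or not uniquely aligned made up 14.3% to 15.0% of them and the counts on genes together. GENCODE M21 (GRCm38) gave symbols for 53706 of 53801 rows, positions and exon lengths.

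Counts were fitted with edgeR 4.0.16 in R 4.3.3 (TMM, filterByExpr, quasi-likelihood F test, Benjamini-Hochberg adjustment over 14531 genes, no covariates). The fit was run on simulated counts in which 200 genes were changed. Far more genes were called in these data, so that run cannot show how the fit performs here. Levels are CPM or, between genes, CPM per kb of exon. Exact permutation of 3 against 3 libraries cannot go below p = 0.1, so calls rest on the fit. The biological coefficient of variation was 4.79%, and no replicates were duplicates (chi-square per degree of freedom 3.23 to 8.36). Promoter windows are RefSeq's (GRCm38.p6).

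The genes named are those called with a change of at least 1 log2 unit and at least 1 CPM, the most abundant of each family, and those not called with at least 5 CPM. From each pathway list the 3 largest and 3 smallest changes at 5 CPM or more are named, and the remaining members given with values, such as Plxna2, Unc5b, Ntn1, Nrp2 and Plxnc1, were chosen after their values were seen. The members, lists and rules were chosen with earlier results of these data known. As alternatives the counts were scaled by upper quartile, by library size alone or by DESeq2 size factors, and the others were looser and stricter count filters, DESeq2 1.42.0, limma-voom (limma 3.58.1), a replicate block, larger fold thresholds and leaving out each library.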

Additional observations from a re-analysis of the deposited data

Results flagged for a closer look

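Reads outside annotated genes, which none of the comparisons used, were more frequent in the Hdac4-knockdown libraries. They made up 4.79% of all reads on average (range 4.64% to 5.07%), against 3.28% (3.17% to 3.41%) in the Control libraries. Which reads these were, and their part in the levels of the guidance genes, was not tested.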

How the results depend on the processing

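Larger fold thresholds lowered the counts by construction. At 0.5 and 1 log2 units, 6458 and 3940 of all genes were called (10914 at 0.05), 12 and 9 guidance genes upward (19), 15 downward at 1 (23), 20 and 12 effectors (42) and 10 and 7 other ligands and co-receptors (17). Over single guidance and list genes, 846 values kept their direction and their side of the threshold, 12 changed sign, 8 lost a call and 9 gained one. No gene that changed sign was called in either setting. With upper quartile normalization, which moved the median of all genes from 0.01 to 0.10, Ephb4 (0.025), Nrp1 (0.076), Plxna1 (0.030) and Plxnb2 (0.020) turned positive. Nrp1 did so with library size alone (0.044) and with at least 10 counts in every library (0.025), and ranged from -0.045 to 0.015 when 1 library was left out. Sema4d was 0.007 with limma-voom and ranged from -0.415 to 0.158 without 1 library, and Sema4g from -0.597 to 0.039. Plxna3 lost its call (0.131, adjusted p = 0.101) and Plxnb2 gained one (-0.097, adjusted p = 0.0305) with no filter beyond 1 count. Sema4a lost its call with upper quartile normalization (-0.515, adjusted p = 0.0572), and Sema3f gained one in 5 settings. The cause was not tested. Libraries with the same number did not deviate together (correlations -0.0111, 0.027 and 0.0166), so the replicate block is an alternative only. With it, 19 guidance genes were called upward, 23 downward and 10964 genes in all. Depth left 16 guidance genes untested.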
